A study of Mus musculus with 12 samples.

Results

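The genes described here are 9 members of the transient receptor potential (TRP) family of cation channels: Trpv1, Trpv2, Trpv4, Trpc1, Trpc6, Trpm4, Trpm7, Trpa1 and Mcoln3. They were chosen by name, as every probe that the array lists under one of these gene symbols, and all 9 were found. They hold 165 of the 165865 probes and are 9 of the 19505 genes measured. The arrays were 12 single-colour exon arrays of the cochlea of male C57BL/6 mice aged 6 weeks, with 4 arrays each for the apical turn (apex), the middle turn and the basal turn (base). All 3 groups share strain, sex and age, and each array received RNA labelled from 25 ng of total RNA. The samples came from 4 mice, and the study describes the 4 arrays of each turn as samples of independent mice. The labels do not say which arrays of different turns share a mouse. The spread between arrays may hold both animal and technical differences.

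TRP channels are tetrameric pores for calcium, sodium and other cations, and they open to stimuli as different as heat, osmotic swelling, membrane lipids, intracellular calcium and pungent compounds. The cochlea runs from low-frequency sites at the apex to high-frequency sites at the base, and several of these channels were at some time proposed for the transduction current of hair cells before other proteins took that place. Mcoln3 (TRPML3), a channel of endosomes and lysosomes, is the gene mutated in the deaf varitint-waddler mouse, and Trpv4, an osmosensitive channel, has been linked to hearing at the level of hair cells, neurons and the stria vascularis.

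On build mm9 the probes of Trpv1 (chr11:73047810-73074724, plus strand) and Trpv2 (chr11:62391832-62413798, plus) lie on chromosome 11, those of Trpc1 (chr9:95607155-95650146, minus) and Trpc6 (chr9:8544291-8680741, plus) on chromosome 9, and those of Trpv4 (chr5:115072208-115094582, minus), Trpm4 (chr7:52558728-52588811, minus), Trpm7 (chr2:126617373-126701896, minus), Trpa1 (chr1:14862782-14908865, minus) and Mcoln3 (chr3:145784887-145803599, plus) on chromosomes 5, 7, 2, 1 and 3. In RefSeq's annotation of GRCm38.p6, Trpv1 neighbours its relative Trpv3 and Mcoln3 neighbours Mcoln2. Mcoln3 overlaps the protein-coding gene Wdr63 and the pseudogene Gm25627, Trpc1 overlaps the noncoding Gm39407, Trpc6 the noncoding Gm32014 and Trpm4 the pseudogene Rpl14-ps1, and a probe inside such an overlap may read either transcript where both share its strand. Probes of Trpm7 had a median G and C content of 37.5%, those of Trpv4 and Trpm4 55.0%, and all probes of the array 45.0%.

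Every probe is a stretch of 60 bases within an exon, so each gene value joins 12 to 32 separate readings along its transcript. The 8 probes below carry the results of the sections that follow. They are given in the sense of the transcript, 5′ to 3′, in lower case throughout, as the array files list them, with positions on mouse build mm9. Probes are numbered from the 5′ end of each gene.
Trpv2 probe 5, chr11:62403267-62403326, plus strand, a reading of Trpv2 higher at the base and dim at the apex: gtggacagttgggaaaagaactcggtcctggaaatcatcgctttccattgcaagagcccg
Trpv4 probe 4, chr5:115085534-115085593, minus strand, which ran against the rest of its gene: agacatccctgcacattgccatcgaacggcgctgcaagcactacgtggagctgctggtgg
Trpv4 probe 13, chr5:115075020-115075079, minus strand, the reading of Trpv4 with the largest excess at the base: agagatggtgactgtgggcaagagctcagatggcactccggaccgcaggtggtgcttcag
Trpm4 probe 5, chr7:52582008-52582067, minus strand, the reading of Trpm4 with the largest excess at the apex: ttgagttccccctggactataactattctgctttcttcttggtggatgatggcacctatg
Trpm7 probe 21, chr2:126642534-126642593, minus strand, which ran against the rest of its gene: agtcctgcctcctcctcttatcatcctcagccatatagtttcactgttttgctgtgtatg
Trpc6 probe 4, chr9:8634152-8634211, plus strand, among the few readings of Trpc6 above background: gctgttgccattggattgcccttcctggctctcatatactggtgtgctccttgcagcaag
Trpa1 probe 6, chr1:14894280-14894339, minus strand, the bright reading of a gene otherwise near background: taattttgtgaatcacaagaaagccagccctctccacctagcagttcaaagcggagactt
Trpv1 probe 3, chr11:73052886-73052945, plus strand, the brightest reading of Trpv1: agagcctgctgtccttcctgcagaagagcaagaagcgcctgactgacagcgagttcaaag

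Values below are scaled signals, that is, fluorescence intensities brought to the same 75th percentile on each array, and a gene value is the mean of its probes on the log2 scale turned back to intensity. Brightness also depends on the probe, so a level of a gene is compared between turns and not with that of another gene. Between 77.4% and 81.4% of the spots of an array were well above background. The 4 arrays of a turn lay on a slide of their own that was scanned on its own, so turn and slide cannot be told apart in any comparison here. In RNA from whole turns, fewer cells of a type and less RNA per cell cannot be told apart either.

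Markers of several cell types were read in the dissected tissue. The hair cell list, which includes Myo7a, Otof and Slc26a5, had 9 of 9 markers with a probe above background on all 12 arrays. Its summed signal ran from 14450 to 18830 at the apex, from 11150 to 12850 in the middle turn and from 3234 to 5780 at the base, and 9 of 9 markers were higher at the apex than at the base. The 4 fibrocyte markers of the spiral ligament went the other way, with sums between 233500 and 255200 at the apex and between 478500 and 543500 at the base, and 4 of 4 were higher at the base. Of 8 markers of spiral ganglion neurons, 6 were higher at the apex than at the base and 1 at the base, and their sum ran from 24960 to 32510 at the apex and from 4766 to 20640 at the base. Of 5 macrophage and leukocyte markers, 4 were higher at the base, with sums of 1091 to 1456 at the apex and 1518 to 1895 at the base. Of all genes, 17.6% were called higher at the apex and 21.6% at the base. No marker of these lists lacked a signal above background. The part of these differences in the results below was not tested.

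For Trpv4, Trpm4, Trpm7 and Mcoln3, all probes were well above background on all 12 arrays, and so were 11 of 14 probes of Trpv2 and 11 of 12 of Trpc1. In Trpv1, Trpc6 and Trpa1, by contrast, 2 of 17 probes of Trpv1, 2 of 13 of Trpc6 and 2 of 26 of Trpa1 passed on all 12 arrays. Of those genes, 11 probes of Trpv1, 11 of Trpc6 and 20 of Trpa1 were above background on none. Their gene values are therefore mostly the software's stand-in for a spot at background, and they are treated separately.

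Apex and base differed in 3 of the 9 genes (33.3%) at an adjusted p under 0.05 by limma, where 39.2% of all genes tested did. Trpv2 and Trpv4 were higher at the base and Trpm4 was higher at the apex, where 21.6% and 17.6% of all genes were called in these directions. Apex and middle turn differed in 3 genes (33.3%), Trpv2, Trpc6 and Trpa1, all higher in the middle turn, against 12% of all genes (4.42% higher at the apex and 7.61% higher in the middle turn). Middle turn and base differed in 1 gene (11.1%), Trpa1, higher in the middle turn, against 20.9% of all genes (11.6% higher in the middle turn and 9.23% at the base). The F test over the 3 turns passed for Trpv2, Trpv4, Trpc6, Trpm4 and Trpa1, which is 5 of 9 (55.6%) against 38.7% of all genes. Trpv2 and Trpa1 passed the F test in each of the 12 fits that left out an array, while the count was 2 without apex 1 and 3 without apex 2, apex 3, middle 1, middle 2, middle 4, base 2 or base 4. The share of all genes in those fits is not set beside these counts. No member reached a 2-fold difference in any comparison, where 4.39%, 0.436% and 2.66% of all genes did so and also had an F test adjusted p under 0.05, for apex and base, apex and middle turn, and middle turn and base, and the largest was 0.46 on the log2 scale. The median difference of the 9 genes between apex and base was -0.02 on the log2 scale, beside -0.04 over all genes. The arrays of apex and base did not overlap in 3 of the 9 genes, those of apex and middle turn in 4 and those of middle turn and base in 2, against 38.3%, 20.8% and 24.1% of all genes. The counts with the middle turn include Trpv2 and Trpa1, each with a lone bright probe on 1 middle array. With that probe left out, the array fell within the range of the apical arrays in both genes. For Trpa1 it also fell within the range of the basal arrays.

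**Figure D1:**
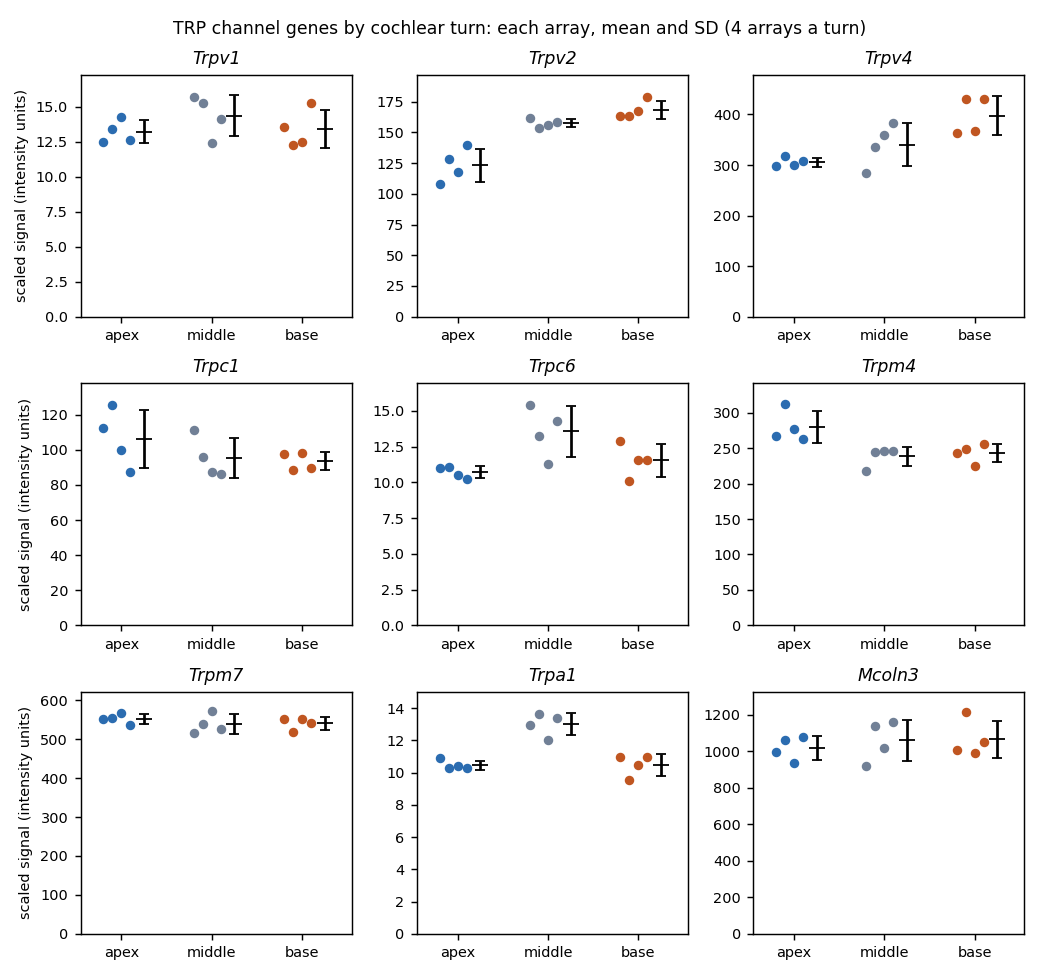
Scaled signal (intensity units, axes from 0) of the 9 genes on each of the 4 arrays of each turn, with the mean and SD of the turn beside the points. The 4 apical arrays of Trpv2 sit between 107.6 and 139.3, below all others, while the turns of Trpm7 and Mcoln3 overlap. Middle array 1 of Trpv2 and middle array 3 of Trpa1 each hold a lone bright probe, without which they fall within the apical range.

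Trpv2 codes for a cation channel found in neurons, muscle and macrophages, where it takes part in phagocytosis. Its signal was 107.6, 128.0, 117.9 and 139.3 on apical arrays, 161.5, 153.7, 156.3 and 158.1 on middle arrays, and 163.6, 163.2, 167.7 and 178.9 on basal arrays. All apical arrays lay below all others, and the middle arrays lay just below the basal ones. Middle array 1 holds a lone bright reading of probe 4, given below, and its distance from the apical arrays rests on it. With that probe left out, middle array 1 fell within the range of the apical arrays. The mean was 123.2 ± 13.6 (SD, n = 4) at the apex, 157.4 ± 3.27 in the middle turn and 168.3 ± 7.31 at the base. The base exceeded the apex 1.37-fold (log2 difference of apex minus base -0.46 ± 0.07 SE, adjusted p = 0.000583), and the middle turn exceeded the apex 1.28-fold (-0.36 ± 0.07, adjusted p = 0.0124). Middle turn and base differed by -0.10 (95% interval -0.26 to 0.06, adjusted p = 0.366). When a gene was summarised by the median of its probes instead of their mean, the apex minus base difference became 0.10 with an adjusted p of 0.639, and apex minus middle became 0.11 with an adjusted p of 0.629. That median was taken over the probe levels of each array. Probe by probe, 13 of 14 had a negative apex minus base difference, and the median of these differences was -0.63.

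The probes of Trpv2 were uneven. Of its 14 probes, 10 differed between apex and base, 9 of them higher at the base. Probe 1, at the 5′ end, was the exception. It read 146.9, 337.5, 157.1 and 147.8 on apical arrays, between 66.8 and 92.8 on middle arrays and between 50.9 and 118.4 on basal arrays, a log2 difference of 1.32 ± 0.30 toward the apex (adjusted p = 0.0067). Probe 5, whose sequence is printed above, read 29.1, 29.6, 28.8 and 35.9 at the apex against 46.6, 70.2, 92.8 and 83.6 at the base, a log2 difference of -1.21 ± 0.19 (adjusted p = 0.000744). It was above background on 2 of the 4 apical arrays and on all others, so the size of its difference rests in part on apical signals not well above background. Probe 14, at the 3′ end, was bright on every array and rose from 607.9 ± 90.5 at the apex to 956.3 ± 56.6 in the middle turn and 1059 ± 55.7 at the base. Probes 3 and 7, by contrast, read 94.7 and 429.1 at the apex and 100.5 and 463.8 at the base, with adjusted p values of 0.455 and 0.382. The fitted differences of the probes of Trpv2 ran from -1.21 to 1.32 around a gene value of -0.46, and 6 of its 14 probes departed from the mean of their gene's other probes, where 10.4% of all probes tested did. The departing probes were 1, 3, 5, 7, 13 and 14. Probe 4 had a lone bright array, 814 on middle array 1 against 90.9 or less elsewhere.

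Trpv4 codes for the osmosensitive and warmth-sensitive channel of epithelia, bone and cartilage. Its signal was 297.8, 317.3, 299.8 and 308.1 at the apex, 283.3, 334.9, 358.8 and 382.6 on middle arrays, and 362.5, 431.4, 367.0 and 430.2 at the base. All basal arrays lay above all apical arrays, and the middle arrays overlapped both. The base exceeded the apex 1.30-fold (log2 difference of apex minus base -0.37 ± 0.09 SE, adjusted p = 0.0081). The middle turn lay between the ends and differed from neither by the test, with log2 differences of -0.14 for apex minus middle (95% interval -0.35 to 0.06, adjusted p = 0.311) and -0.23 for middle minus base (95% interval -0.44 to -0.02, adjusted p = 0.106).

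Along the transcript of Trpv4 the excess at the base was larger toward the 3′ end. Probes 1, 2, 3, 5 and 6 had differences between -0.14 and -0.41 that did not pass, and probes 7 to 15 all passed with differences between -0.35 and -0.70. Probe 13 read 382.8, 433.6, 413.7 and 409.0 at the apex, between 402.0 and 570.4 in the middle turn, and 569.2, 691.9, 664.0 and 741.5 at the base. It was also the reading of Trpv4 that passed between middle turn and base (log2 difference -0.51, adjusted p = 0.0179). Probe 4 went the other way, at 206.3, 198.6, 241.6 and 190.2 at the apex and 145.5, 190.2, 170.1 and 138.7 at the base, a log2 difference of 0.38 ± 0.11 (adjusted p = 0.0231). Apical array 4 and basal array 2 met there at 190.2, and the other arrays of these turns did not overlap. Probes 4, 13, 14 and 15 departed from the rest of the gene, probe 4 by 0.81 on the log2 scale (adjusted p = 0.00484).

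Trpm4 codes for a monovalent cation channel opened by intracellular calcium. Its signal was 267.0, 312.2, 276.8 and 263.4 at the apex, 218.6, 244.6, 246.0 and 246.8 on middle arrays, and 243.8, 248.7, 225.2 and 256.5 at the base. The apical arrays were the highest 4, and the other turns overlapped. The apex exceeded the base 1.15-fold (log2 difference 0.20 ± 0.07 SE, adjusted p = 0.0395), and the apex and middle turn differed by 0.23 ± 0.07, which missed the threshold (adjusted p = 0.0554). That difference passed with limma's trend and robust options (adjusted p = 0.0419), with 16 added to each signal (0.0444) and with only the probes above background in at least 1 turn or on all 12 arrays (0.0413 and 0.0388). The call between apex and base was weak. It was lost with apex 2, apex 3, middle 2, base 1, base 2 or base 3 left out, with adjusted p between 0.0519 and 0.113, and also with quantile normalisation (difference 0.11, adjusted p = 0.235), scaling to the median (0.08, adjusted p = 0.367), normexp background correction (0.12, adjusted p = 0.0761), the median or the linear mean of probes, or only the 8 arrays compared. Scaled to the spike-in control spots, the difference turned to -0.22 (adjusted p = 0.0733), beside a shift of all genes of -0.45.

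The probes of Trpm4 that differed lay among the 15 nearest the 5′ end. Probes 2, 5, 8, 9, 11 and 15 of 24 were higher at the apex, by 0.36 to 0.55 on the log2 scale, and none was higher at the base. Probe 5 read 130.5, 181.5, 162.7 and 139.8 at the apex, 119.5, 119.7, 129.9 and 128.5 on middle arrays and 108.1, 98.0, 106.9 and 104.2 at the base, so that the 3 turns did not overlap (apex minus base 0.55 ± 0.10, adjusted p = 0.00161). It was the 1 probe of Trpm4 that departed from its gene (0.36, adjusted p = 0.0183). Probes 8 and 15 also differed between apex and middle turn (adjusted p = 0.0479 and 0.00673).

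**Figure D2:**
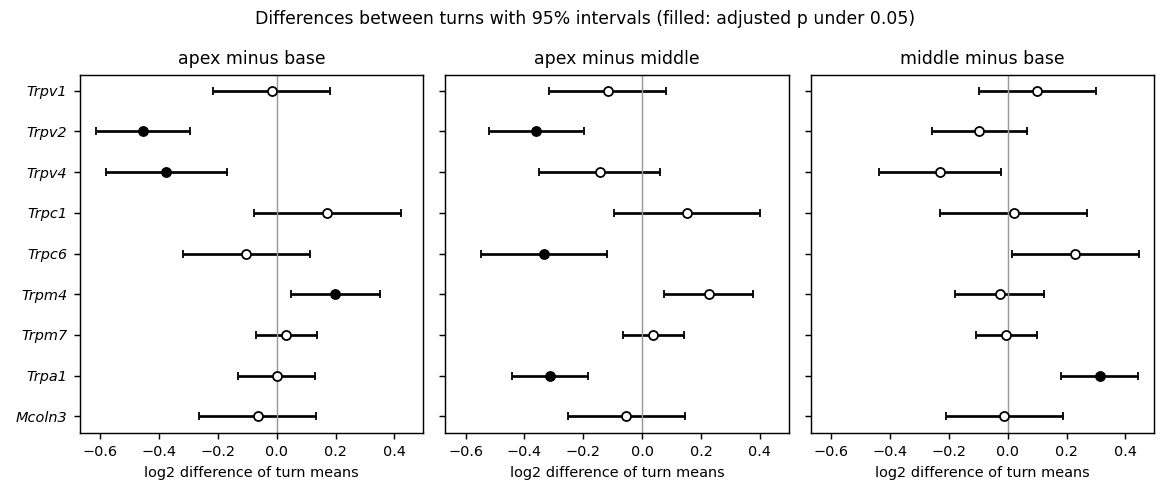
Log2 difference of turn means with its 95% interval for the 9 genes, for apex minus base, apex minus middle and middle minus base, from limma over 12 arrays. Filled points have an adjusted p under 0.05, and all lie within 0.46 of 0.

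Trpm7 and Mcoln3 passed in no comparison at the 75th percentile scaling, and with the spike-in scaling both were called lower at the apex than at the base (-0.39, adjusted p = 0.00367 and -0.48, adjusted p = 0.00239). Trpm7 codes for a channel for magnesium, zinc and calcium that carries its own kinase domain and is needed by most cells. Its signal was 553.2 ± 12.8 at the apex, 539.1 ± 24.8 in the middle turn and 540.8 ± 16.3 at the base, and the log2 difference of apex minus base was 0.03 (95% interval -0.07 to 0.14, adjusted p = 0.651). Mcoln3 read 995.3, 1061, 933.3 and 1079 at the apex, 917.2, 1136, 1020 and 1162 on middle arrays and 1006, 1213, 990.7 and 1053 at the base. The turns overlapped throughout. Its apex minus base difference was -0.07 (95% interval -0.26 to 0.13, adjusted p = 0.642). All 12 of its probes were bright on every array, between -0.23 and 0.08 for apex minus base, and none differed in any comparison.

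Within Trpm7, 5 of 32 probes differed between apex and base. Probes 11, 13 and 23 were higher at the apex by 0.17 to 0.23. Probe 21 read 9235, 8570, 8882 and 8566 at the apex, between 9224 and 10528 in the middle turn, and 11317, 11426, 11003 and 9932 at the base, and apical and basal arrays did not overlap. Its difference was -0.31 ± 0.07 (adjusted p = 0.00449), away from the rest of the gene by -0.35. Probe 32, at the 3′ end, rose from 2065 at the apex to 2573 at the base (-0.32 ± 0.06, adjusted p = 0.00199). Probes 11, 21, 22 and 32 departed from their gene.

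Trpc1 codes for a widely expressed subunit of receptor-operated and store-operated cation channels. Its signal was 112.6, 125.8, 99.7 and 87.2 at the apex, 111.1, 96.1, 87.7 and 86.4 on middle arrays and 97.9, 88.7, 98.1 and 89.8 at the base. The arrays of all turns overlapped, and the apex minus base difference was 0.17 (95% interval -0.08 to 0.42, adjusted p = 0.275). Probes 3 and 5 were higher at the apex, by 0.64 (adjusted p = 0.0418) and 0.28 (adjusted p = 0.0366). The wide spread of the apex came in part from probe 9, which read 2094 on apex 2 and between 68.4 and 114 on the other 11 arrays. With that probe left out the difference between apex and base was 0.10 (adjusted p = 0.49), without apex 2 it was 0.09 (adjusted p = 0.609) and without apex 4 it was 0.26 (adjusted p = 0.0711). With the spike-in scaling it was -0.25 (adjusted p = 0.0509).

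**Figure D3:**
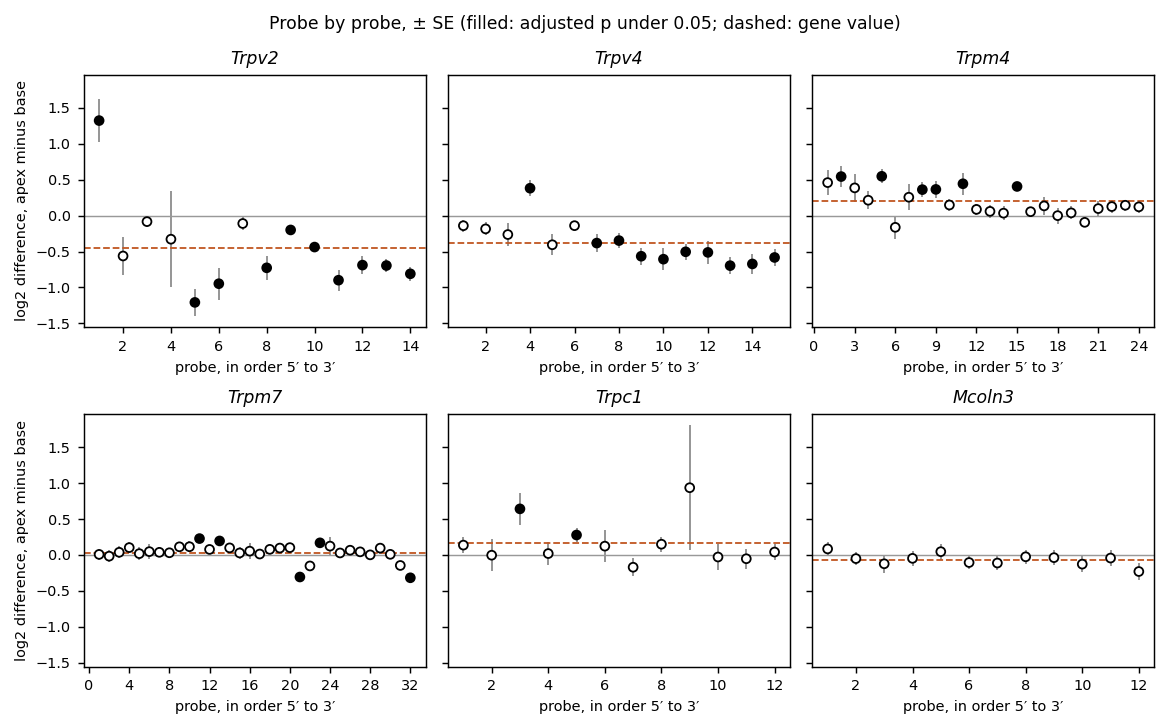
Log2 difference of apex minus base (± SE) of each probe of Trpv2, Trpv4, Trpm4, Trpm7, Trpc1 and Mcoln3, in order from 5′ to 3′, with the gene value as a dashed line. Filled points have an adjusted p under 0.05: 9 of the 10 filled probes of Trpv2 lie below 0 and probe 1 lies at 1.32, while Mcoln3 has no filled probe.

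Over all 9 genes, 35 of 165 probes (21.2%) differed between apex and base, 13 higher at the apex and 22 at the base, against 34.4% of all probes (18% and 16.4%). Between apex and middle turn 11 probes (6.67%) differed, 3 higher at the apex and 8 higher in the middle turn, against 5.9% of all probes (3.04% and 2.86%). Between middle turn and base 4 (2.42%) differed, 3 higher in the middle turn and 1 higher at the base, against 13.8% of all probes (7.76% and 6.02%). Departures from the rest of the gene were found for 15 probes (9.09%) between apex and base, 6 in Trpv2, 4 in Trpv4, 4 in Trpm7 and 1 in Trpm4. None departed between apex and middle turn or between middle turn and base, where 0.24% and 0.949% of all probes did. Probes of a gene share its RNA and are no replicates of each other. These counts changed with single arrays, and the share of all probes in such fits is not set beside them. Apex against base gave 23 probes without apex 2 and 21 without base 2, and departures fell to 7 and 8 in the same fits. Apex against middle ran from 3 probes without apex 2 or apex 3 to 23 without middle 3, with 4 without apex 1 or middle 4, 6 without middle 2, base 1 or base 3 and 7 without base 2, and middle against base from 1 without base 2 to 18 without middle 3.

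Trpa1, Trpc6 and Trpv1 rested on few readings above background. Trpa1 codes for the channel for mustard oil and other irritants. Its gene value was 10.9, 10.3, 10.4 and 10.3 at the apex, 13.0, 13.6, 12 and 13.4 on middle arrays and 11, 9.53, 10.5 and 10.9 at the base. All middle arrays lay above all others. Middle 3 did so only with a lone bright reading, given below. With that probe left out, middle 3 fell within the ranges of the apical and the basal arrays. The middle turn differed from the apex by 0.31 (apex minus middle -0.31 ± 0.06, adjusted p = 0.00918) and from the base by 0.31 ± 0.06 (adjusted p = 0.00494). The median signal of spots at background moved in the same way: it was 6.86 to 7.67 on apical arrays, 6.81 to 8.14 on basal arrays, and 9.38, 9.05, 7.10 and 9.34 on middle arrays. Middle 3 was the lowest of that turn for Trpa1 as well as for the background, and the part of the background in the difference was not tested. With only the probes above background on all 12 arrays, which leaves 2 probes of Trpa1, apex minus middle was -0.15 (adjusted p = 0.334) and middle minus base was 0.04 (adjusted p = 0.799). Neither call held with normexp (-0.14 and 0.13, adjusted p = 0.193 and 0.176), and middle minus base was 0.05 with the spike-in scaling (adjusted p = 0.584).

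Those 2 probes were unlike. Probe 6, printed above, read from 1189 to 1491 over the 12 arrays, with means of 1345 at the apex, 1294 in the middle turn and 1384 at the base, and the turns overlapped (apex minus base -0.04, adjusted p = 0.74). Probe 10 read from 31.9 to 62.9. Probe 21 was above background on all but 1 array and was higher in the middle turn, at 39.4, 36.9, 47.4 and 43.7, than at the base, at 30.5, 26.6, 28.6 and 29.5 (middle minus base 0.53, adjusted p = 0.005). Middle and basal arrays of probe 21 did not overlap, and middle and apical arrays did not either (apex minus middle -0.37, adjusted p = 0.041). Probe 17 had a lone bright array, 327 on middle 3 against 19.0 or less elsewhere. With such probes left out, the differences of Trpa1 were -0.25 (adjusted p = 0.0707) and 0.25 (adjusted p = 0.059). No 20-base stretch of probe 6 occurred in a probe of another gene on the array. That search covered only the probes of the array, and matches elsewhere in the genome were not checked.

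Trpc6 codes for a diacylglycerol-activated calcium channel. Its gene value was 11, 11.1, 10.5 and 10.2 at the apex, 15.4, 13.3, 11.3 and 14.3 on middle arrays and 12.9, 10.1, 11.6 and 11.6 at the base. The middle arrays lay above the apical ones (apex minus middle -0.33 ± 0.10, adjusted p = 0.0492), again with middle 3 the lowest, as for the background. This call was lost in 9 of the 12 fits that left out an array, namely each of the 4 apical arrays, middle 1, middle 2, middle 4, base 3 or base 4, with adjusted p up to 0.127. Without middle 3 it held, and Trpc6 was then also higher in the middle turn than at the base (0.32, adjusted p = 0.0226). With quantile normalisation and normexp the difference between apex and middle turn was -0.13 and -0.15 (adjusted p = 0.181 and 0.203). Its 2 probes above background gave -0.22 (adjusted p = 0.0445). Probe 4, printed above, read 169.3, 202.2, 184.4 and 168.8 at the apex, 225.1, 206.6, 215.1 and 241.3 on middle arrays and 211.2, 192.0, 183.4 and 176.3 at the base. Apical and middle arrays did not overlap there, and the probe's own difference missed the threshold (-0.29, adjusted p = 0.063). Probe 1 was higher at the base than at the apex, at 593.2 against 505.2 (-0.23, adjusted p = 0.0448).

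Trpv1 codes for the capsaicin receptor of nociceptive neurons. Its gene value ran from 12.3 to 15.7 over the 12 arrays, the turns overlapped, and the apex minus base difference was -0.02 (95% interval -0.22 to 0.18, adjusted p = 0.908). It was called higher at the base with the median of its probes (-0.25, adjusted p = 0.046) and with the spike-in scaling (-0.43, adjusted p = 0.0018). Probe 3, printed above, read 202.2, 186.3, 197.5 and 187.2 at the apex, 191.0, 217.7, 209.6 and 217.7 on middle arrays and 222.3, 244.5, 200.3 and 241.5 at the base. It was higher at the base than at the apex (-0.23 ± 0.08, adjusted p = 0.0389), with an overlap of the arrays. Probe 5, also above background throughout, read 73.5, 85.0 and 77.1 on average in the 3 turns.

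**Figure D4:**
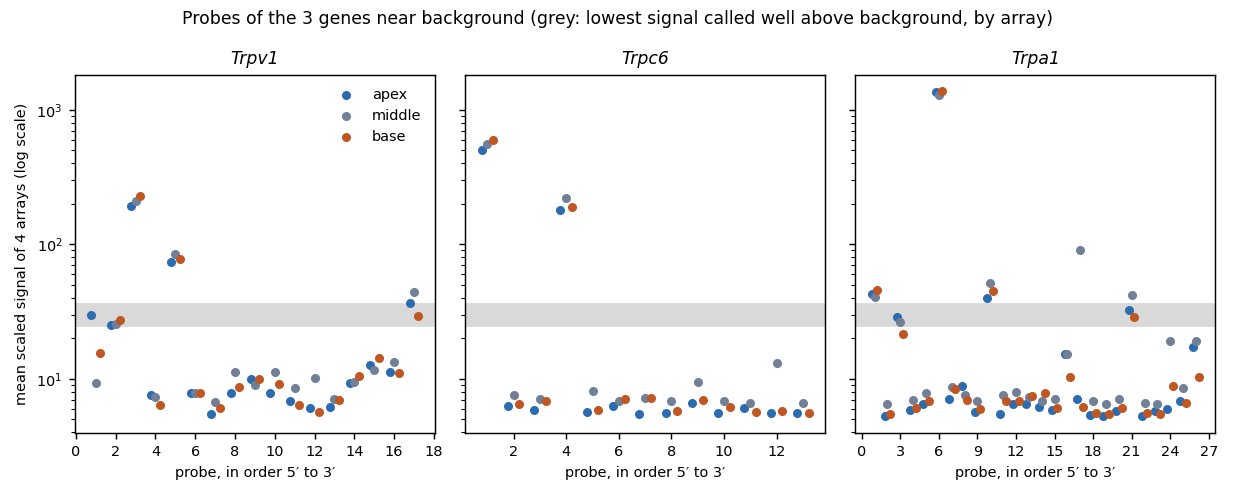
Mean scaled signal of 4 arrays (log scale) of each probe of Trpv1, Trpc6 and Trpa1 in the 3 turns, in order from 5′ to 3′. The grey band spans the lowest signal called well above background on the 12 arrays, 24.7 to 35.8, and most probes of these genes lie under it, apart from a few such as Trpa1 probe 6 near 1345.

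Other TRP family genes were taken as a list of 18. All were on the array, and 16 had a probe above background on all 12 arrays. Between apex and base, 2 were higher at the apex and 4 at the base, against 17.6% and 21.6% of all genes. Between apex and middle turn 1 had its higher signal at the apex and 4 had it in the middle turn, against 4.42% and 7.61%. Between middle turn and base 1 was higher in the middle turn and 2 at the base, against 11.6% and 9.23%. The list's median difference for apex minus base was -0.01, beside -0.04 over all genes. The F test passed for 7 of 18, against 38.7% of all genes. Trpm3, a heat-sensitive channel of sensory neurons and epithelia, fell from 1060 ± 113 at the apex to 685.8 ± 38.4 in the middle turn and 622.3 ± 65.9 at the base (apex minus base 0.77, adjusted p = 0.000107). Trpm1, a channel of melanocytes and retinal bipolar cells, rose from 55.9 ± 7.29 to 97.3 ± 10.6 and 110.6 ± 16.9 (-0.98, adjusted p = 0.000127). Of the 5 markers of melanocytes and strial intermediate cells, 4 were higher at the base too, with sums of 35310 to 40990 at the apex and 53620 to 72500 at the base, and their part in the result was not tested.

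Mcoln1, the lysosomal relative of Mcoln3, rose along the cochlea from 861.7 ± 31.5 to 1069 ± 30.9 and 1249 ± 86.2, and all 3 comparisons passed (adjusted p = 4.04e-05 for apex against base). Trpm8, the menthol and cold receptor, rose from 15.2 to 18.8 and 27.8 (apex minus base -0.87, adjusted p = 1.25e-05), with 4 of 23 probes above background on all arrays. Trpm2, a channel gated by ADP-ribose, was lower at the base, at 26.3 against 38.4 at the apex (0.56, adjusted p = 0.00612), with 8 of 31 probes above background throughout. With normexp background correction the difference of Trpm2 was 0.14 (adjusted p = 0.158), and scaled to the spike-in spots it was 0.14 (adjusted p = 0.372). Trpm3, Trpm1, Mcoln1 and Trpm8 kept the direction and the call of apex against base under quantile normalisation, scaling to the median or to the spike-in spots, and normexp, but not always the size. Trpm8 was at -0.28 with normexp (adjusted p = 0.00248), and with the spike-in scaling Trpm3 was at 0.35 (adjusted p = 0.0212) and Mcoln1 at -0.95 (adjusted p = 1.13e-05).

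**Figure D5:**
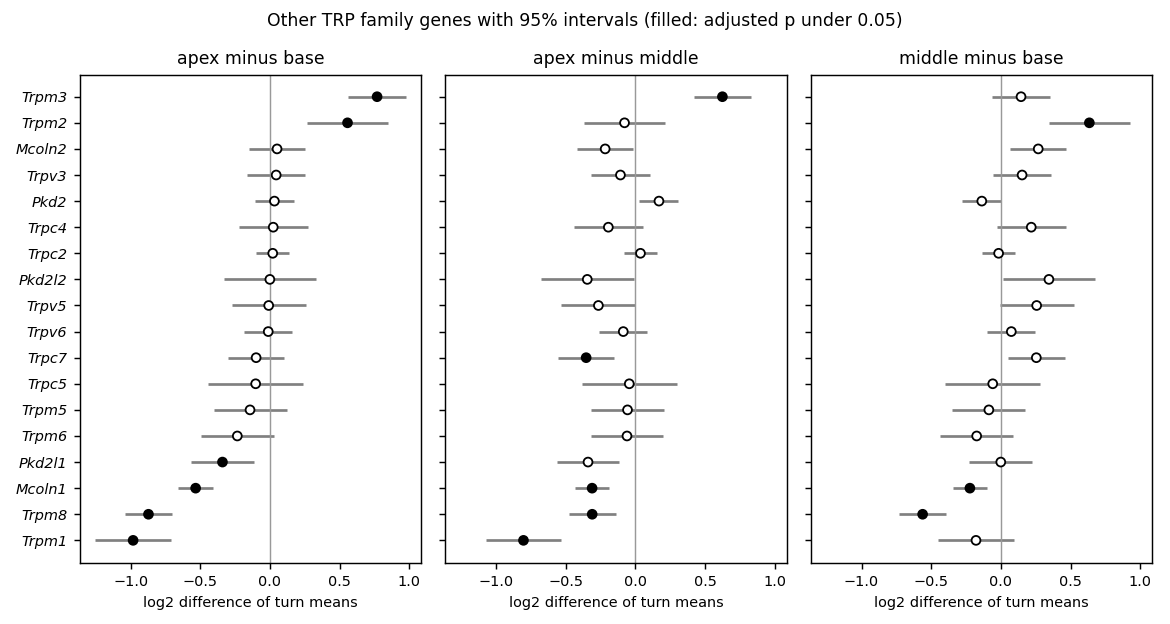
Log2 difference of turn means with its 95% interval for 18 other TRP family genes, ordered by apex minus base. Filled points have an adjusted p under 0.05: Trpm3 and Trpm2 lie on the apical side, and Trpm1, Trpm8, Mcoln1 and Pkd2l1 on the basal side.

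A list of 24 partner genes held the store-operated calcium entry proteins, inositol trisphosphate receptors, phospholipases C, calmodulins and other genes whose products act on TRP channels. Between apex and base, 6 were higher at the apex and 7 at the base, against 17.6% and 21.6% of all genes. The F test passed for 13 of the 24, against 38.7% of all genes. Orai1, the pore of store-operated calcium entry, rose from 311.9 ± 20.2 at the apex to 378.9 ± 10.2 in the middle turn and 567.6 ± 48.6 at the base (apex minus base -0.86, adjusted p = 5.81e-06). Stim2, a calcium sensor of the endoplasmic reticulum, was higher at the apex, at 1143 ± 39.9 against 949.8 ± 27.5 at the base (0.27, adjusted p = 0.00217), but not by the test when scaled to the median (0.15, adjusted p = 0.0507) and with the opposite sign when scaled to the spike-in spots (-0.15, adjusted p = 0.182). The phospholipase genes were split. Plcb4 fell from 784.3 ± 34.8 to 502.7 ± 71.0 from apex to base (0.65, adjusted p = 0.000749) and Plcb2 from 38.4 ± 3.48 to 25.2 ± 1.77 (0.61, adjusted p = 0.000563), and neither passed with spike-in scaling (0.23 and 0.19, adjusted p = 0.0942 and 0.227). Of 28 probes of Plcb2, 6 were above background on all arrays, and with normexp its difference was 0.15 (adjusted p = 0.042). Plcg1 rose from 297.1 ± 15.4 to 363.2 ± 14.1 (-0.29, adjusted p = 0.001).

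The genes whose log2 signals ran most like those of a member over the 12 arrays were sought among 16006 genes with a probe above background on all arrays. These correlations share the turns, the slides and the scaling, so they describe a common pattern over 3 groups. For Trpv2 they were Cutc (Pearson r = 0.972), Pcp4l1 (0.97) and S1pr3 (0.964), and for Trpv4 they were Tead2 (0.9749), Flot2 (0.972) and 1600002K03Rik (0.971). For Trpm4 they were Veph1 (0.961), 9430020K01Rik (0.944) and Nfia (0.943). The genes most like Trpc6 were 5430402E10Rik (0.972), Chrnb3 (0.972) and Sis (0.951), and those most like Trpa1 were Pde6c (0.952), Cr2 (0.939) and Mep1a (0.929). All 6 of these had between 1 and 3 probes above background on all arrays, as Trpc6 and Trpa1 did with 2.

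The choice of scaling set the direction of several small differences. Scaled to the spike-in control spots, the median gene lay 0.45 lower on the log2 scale at the apex than at the base (median difference -0.45), against -0.04 at the 75th percentile and -0.15 when scaled to the median. On that scale 7 of the 9 genes were called higher at the base than at the apex, against 68.7% of all genes, and none was called higher at the apex, against 4.7% (21.6% and 17.6% at the 75th percentile scaling). Trpv2 and Trpv4 were called higher at the base under every scaling tried, at -0.87 and -0.79 with the spike-in scaling.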

How the data were processed

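RNA of 12 samples, 4 for each cochlear turn, was hybridized to Agilent single-colour exon arrays. The authors scanned the arrays and extracted intensities with Agilent Feature Extraction 10.7.3.1. The processed intensity deposited by the authors has the background subtracted and is not normalized between arrays, and spots at background carry a small positive stand-in. The deposited value table repeats these processed intensities (100% within a relative 1e-04). Per the study's methods, cyanine 3-labelled cRNA was made with Agilent's low-input whole-transcriptome kit, fragmented and hybridized, and the authors carried out their gene-level analysis in GeneSpring GX, whose output is not used here.

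Of 180880 spots per array, 7914 control spots and spots flagged as uneven or deviating were left out, which removed 119 of 165984 probes, 1 of them in Trpc1. The remaining 165865 probes were scaled to the 75th percentile of each array, as in the study's methods (75th percentiles 534 to 721.6 before scaling), put on the log2 scale, and averaged per gene name (19505 genes). Dim probes were kept. Differences were fitted with limma 3.58.1 (lmFit, eBayes) in R 4.3.3 on the 12 arrays together, with p-values adjusted by Benjamini and Hochberg's method across all genes or all probes, and an adjusted p under 0.05 was a call. A departure is a probe's log2 value minus the average of the other probes of that gene, in genes with 3 or more probes (159900 probes). With 4 arrays a turn, their number limits the precision. Groups came from the sample titles.

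Named were all 9 members, their probes that differed or departed or lay at the ends of the range, up to 5 genes each of the other TRP family and partner lists by the F test, and the 3 genes most correlated with each member that passed it. Gene lists and members were chosen with earlier results of these data known. A gene of the TRP family list is not reported here, and the counts of that list leave it out. The fits were tested on simulated data with 200 changed genes, of which 123 were recovered at a log2 change of 0.5 and 187 at 1, for apex against base over 19505 genes. Far fewer genes changed there than the 39.2% called in the data, and both changes exceed the largest member difference, 0.46. The recovery therefore does not give the sensitivity for the members. Alternatives were other scalings (median, spike-in spots, quantile), normexp with an offset of 50, 16 added to each signal, only probes above background, flagged probes kept, each array left out, limma's trend and robust options, the sample number as a block, the median or the linear mean of probes, an unmoderated F test, only the 8 arrays compared, and a 2-fold rule. Restricting to probes above background on all 12 arrays, and leaving out probes with a lone bright array (over 2 log2 units above the next), were added after seeing the data.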

Additional observations from a re-analysis of the deposited data

Results flagged for a closer look

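Within each turn, the 4 arrays of the 9 genes were screened for a value far from the others, by the gap to its nearest neighbour over the whole range, in 27 groups. In 1 of them the gap passed Dixon's 95% limit. For Trpm4, middle 1 read 218.6 while the other middle arrays read 244.6 to 246.8, a ratio of 0.924. Chance gives about 5% of such groups, so 1 flag among 27 is near that share. Without middle 1, the middle minus base difference of Trpm4 turned from -0.03 to 0.01 on the log2 scale, with an adjusted p of 0.912.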

How the results depend on the processing

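The direction of all 7 member differences called as reported held in each fit that left out an array. This was fixed beforehand, since in each of them the arrays of the turns compared did not overlap. The call itself was lost in 15 of those 84 values. With 1 array left out, apex against base gave 2 to 3 genes, apex against middle 2 to 3, middle against base 1 to 2 and the F test 2 to 5, and the probe counts ran from 21 to 35, from 3 to 23 and from 1 to 18, with 7 to 19 departures. Scaled to the spike-in controls, apex against base gave 7 genes and 119 of 165 probes, where 73.4% of all genes and 58.9% of all probes were called. On that scale apex against middle gave 33 probes (13.8% of all probes) and middle against base 4 genes and 39 probes (39.8% of all genes and 31% of all probes). Those 4 genes were Trpv2, Trpv4, Trpm4 and Trpm7, all higher at the base, and Trpa1, the gene called as reported, was lost (0.055, adjusted p = 0.584). Middle against base gave 0 genes with quantile normalization, normexp, the median or the linear mean of probes, probes above background in at least 1 turn or on all 12 arrays, or without probes with a lone bright array. Of all genes, 20.3% were called there with quantile normalization and 19.7% with normexp. Apex against middle gave 1 gene with normexp (9.6% of all genes) or the linear mean and 0 with the median. The F test passed 3 genes with quantile normalization, 2 with normexp or the linear mean and 1 with the median of probes. The 2-fold rule gave 0 genes in each comparison. Middle against base gave 2 probes with quantile normalization (12.7% of all probes) or 16 added. With only the 8 arrays compared it gave 1 probe, beside 5 probes for apex against middle and 9 departures. For the other fits of this paragraph, the shares of all genes and probes are not set beside the counts.

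Of the called differences, Trpv2 turned with the median of probes (0.10 for apex minus base, 0.11 for apex minus middle) and Trpm4 with the spike-in scaling (-0.22 for apex minus base). The other reversals were of differences never called as reported. With the spike-in scaling Trpc1 became -0.25 for apex minus base, -0.0079 for apex minus middle and -0.24 for middle minus base, Trpm7 -0.39 for apex minus base and -0.12 for apex minus middle, and for middle minus base Trpc6 became -0.028 and Trpv1 -0.16. With quantile normalization Trpc1 became -0.0165 for apex minus base and -0.095 for middle minus base, Trpv1 -0.10 and Mcoln3 0.019 for middle minus base. Scaled to the median, Trpm7 became -0.0835 for apex minus base and -0.015 for apex minus middle, and Trpc1 -0.0435 for middle minus base. With the linear mean Trpm7 became -0.098 for apex minus base and -0.036 for apex minus middle, and with the median of probes Trpc1 became -9e-04 for apex minus base, and for middle minus base Trpc1 -0.037, Trpm7 0.045 and Trpv1 -0.056. With 16 added Trpa1 became 0.0082 for apex minus base. With 1 array left out, apex minus base ran from -0.056 to 0.048 for Trpv1 and from -0.0455 to 0.023 for Trpa1, and middle minus base from -0.056 to 0.065 for Trpc1, from -0.0645 to 0.015 for Trpm4, from -0.035 to 0.0145 for Trpm7 and from -0.058 to 0.056 for Mcoln3. The cause of these changes was not tested.

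Same-numbered arrays of different turns correlated with r from -0.04 to 0.23 in their deviations from the turn means, 6 of 12 pairs over 0.1. Their mean r was 0.09, against -0.03 for other pairs, and 8 of 12 arrays correlated best with their own number. These values leave it unsettled whether a number marks a mouse, and the labels do not say. The numbers were therefore not taken as pairs in the main fit. With the sample number as a replicate block, apex against base gave 3 genes and 29 probes, apex against middle 4 genes (Trpm4 gained, adjusted p = 0.0472) and 10 probes, middle against base 1 gene and 9 probes, with 5 genes by the F test and 16 departures. The shares of all genes and probes in that fit are not set beside these counts. Slide as a block could not be fitted, since each slide holds 1 turn. Signal over background limits Trpv1, Trpc6 and Trpa1.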
